A study of Homo sapiens with 2 samples.

Results

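A set of 10 Notch pathway genes was followed in ALDH+ and ALDH- cells of the ovarian cancer cell line RMG1: the receptors NOTCH1, NOTCH2, NOTCH3 and NOTCH4, the ligands JAG1, JAG2, DLL1 and DLL4, and the transcriptional targets HES1 and HEY1. They were found by their gene name on the array, and all their probes were used: 12 of 34123 gene probes, for 10 of 27265 genes. RMG1 is an established line of clear cell adenocarcinoma. Its cells were sorted by the ALDEFLUOR assay, in which a fluorescent substrate is retained by cells with aldehyde dehydrogenase (ALDH) activity, into ALDH+ (ALDEFLUOR high) and ALDH- (ALDEFLUOR low) populations. The labels name no treatment for either population. The labels and the results of the study name RMG1, but the methods give AMOC2 as the line this RNA came from. RNA of both populations was hybridized together to two-color arrays, with ALDH+ cells in Cy5 on one array and in Cy3 on the other. These 2 arrays carry 1 extract of each population, so no test was possible, the SD of the arrays given below is technical, and a lower amount of RNA per cell and fewer cells expressing it cannot be told apart.

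Notch receptors are single-pass proteins that are cut after they bind a Jagged or Delta ligand on a neighboring cell. ADAM proteases and then gamma-secretase release the intracellular part, which enters the nucleus and, with the DNA-binding protein RBPJ, activates genes such as HES1 and HEY1. HES and HEY proteins are basic helix-loop-helix repressors. In the ovary and its tumors, Notch signaling is known for its part in follicle growth, in blood vessels and in the maintenance of stem-like tumor cells.

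Of the 10 genes, 7 had a probe well above background on both arrays: NOTCH1, NOTCH2, NOTCH3, JAG1, JAG2, HES1 and HEY1. Both Jagged ligands, NOTCH3 and the brighter probe of NOTCH2 had lower signal in ALDH+ cells on both arrays, HES1 had higher signal on both, and NOTCH1 and HEY1 had no common direction. With median centring in place of loess, NOTCH2, NOTCH3 and HES1 had no common direction relative to all genes either, with the values given beside the other settings. The differences were small. None (0) of the 7 genes had a mean ratio past 2-fold higher, the fold criterion of the study's screen, or past 2-fold lower. In either direction 0 passed 1.5-fold. Among the 13720 genes measured, 0.211% were past 2-fold higher and 0.707% past 2-fold lower, while 1.51% were past 1.5-fold higher and 4.59% past 1.5-fold lower. The median log2 ratio of the 7 genes was -0.33, and 5 of the 7 lay below 0. That median was -0.108 with median centring, -0.065 with the mean over a gene's measured probes and -0.094 without the filter on background. Over all genes measured the median was -0.0023 under loess and 0.0732 with median centring. Under loess 6912 of 13720 lay below 0. NOTCH4, DLL1 and DLL4 were not well above background in either population on either array, so no ratio is read for them.

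Probes of NOTCH1, NOTCH2 and HES1 that lie within coding sequence are shown here, in the sense of the transcript, since they say which part of each transcript was read. In the NOTCH1 probe the capitals mark the stop codon, which ends the reading frame of the receptor. It lies on the minus strand of hg19 at chr9:139390523-139390582.
NOTCH1: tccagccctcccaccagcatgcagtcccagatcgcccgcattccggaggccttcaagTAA
The NOTCH2 probe nearer the 5′ end lies on the minus strand of hg19 at chr1:120539807-120539866 and reads into the epidermal growth factor-like repeats of the extracellular part. It is shown because its ratio opposes that of the other NOTCH2 probe.
NOTCH2: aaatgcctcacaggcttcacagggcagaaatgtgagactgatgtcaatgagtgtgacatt
The HES1 probe lies on the plus strand of hg19 and reads into the basic region that contacts DNA. Its 60 bases extend over 188 bases of the genome, chr3:193854276-193854463, so it crosses an exon junction, with 128 bases in between that are not in the probe.
HES1: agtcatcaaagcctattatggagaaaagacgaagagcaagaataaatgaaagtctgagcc

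Intensities below were background-corrected with an added offset of 50, normalized within arrays by loess and brought to one scale between arrays, in arbitrary units. They are comparable between populations for one probe and not between probes. Log2 ratios are of ALDH+ over ALDH- cells. Across all genes measured the ratios of the arrays differed by a median of 0.158 on the log2 scale, and in 95% of genes by less than 0.517.

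Among the receptors, NOTCH3 had the most even values. Its intensity was 3721.3 in ALDH+ and 4558.3 in ALDH- cells where ALDH+ cells were labeled with Cy5. With the dyes exchanged it was 3466.8 and 4444.5. Both ALDH+ values lay below both ALDH- values. The log2 ratios were -0.29 and -0.36, with a mean of -0.33 and an SD of 0.0465, which is 1.25-fold lower in ALDH+ cells. Under loess the difference exceeded the SD of the arrays, and 14.3% of the genes measured had a lower ratio. With median centring the log2 ratios were 0.70 and -0.92, above the median of all genes on one array and below it on the other. The probe lies at chr19:15270489-15270548 of hg19, from base 7966 of the transcript NM_000435.

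NOTCH2 had opposite ratios at its probes. The 3′ probe, from base 10724 of NM_024408 (hg19 chr1:120454858-120454917), had intensities of 2164.6 in ALDH+ and 2573.0 in ALDH- cells with ALDH+ cells in Cy5, and of 1822.4 and 2893.0 with the dyes exchanged. Its log2 ratios were -0.25 and -0.67, with a mean of -0.46 (SD 0.295). The 5′ probe shown above, from base 801 of NM_001200001, had 1129.0 in ALDH+ and 785.3 in ALDH- cells, and 1042.5 and 875.8 with the dyes exchanged. Here both ALDH+ values were the higher ones. The log2 ratios were 0.52 and 0.25, with a mean of 0.39 (SD 0.193), or 1.31-fold higher.

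The NOTCH2 probes thus differed by 0.85 on the log2 scale, by 0.77 on one array and 0.92 on the other. Among 2508 genes with several measured probes the median difference between the extreme probes was 0.167, and 35 genes (1.40%) had one at least as large as NOTCH2. The array's annotation assigns the 3′ probe to the full-length NOTCH2 transcript. It assigns the 5′ probe to NM_024408, to the shorter NM_001200001 and also to NM_203458, the transcript of NOTCH2NL, a human-specific partial copy of NOTCH2. The array has 2 other probes for NOTCH2NL. One was measured throughout, with log2 ratios of 0.13 and 0.24, and the other was so on 1 array only in each population. The signal of the 5′ probe can therefore not be assigned to NOTCH2 alone, and the part of NOTCH2NL in it was not tested.

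NOTCH1, the receptor best known for mutations in T-cell leukemia, had no difference beyond the arrays' spread. At the stop codon probe the intensity was 248.5 in ALDH+ and 287.3 in ALDH- cells with ALDH+ cells in Cy5, and 292.5 and 276.9 with the dyes exchanged. The populations overlap. The log2 ratios were -0.21 and 0.08, with a mean of -0.07 (SD 0.204). A further NOTCH1 probe downstream of the stop codon (hg19 chr9:139389764-139389823) was spotted 10 times but was not well above background. Its mean raw signals in Cy3 were 141 in ALDH- and 132 in ALDH+ cells, where negative control spots had medians of 135.2 and 127.2. NOTCH4, a receptor known mainly from blood vessels, had a raw Cy3 signal of 142 in ALDH- cells and 146 in ALDH+ cells. In Cy5 it had 66.3 in ALDH+ and 52.0 in ALDH- cells, where negative control spots had medians of 45.1 and 43.1. These signals were above the control medians but not flagged as well above background. Its probe lies at chr6:32162624-32162683 of hg19.

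**Figure D1:**
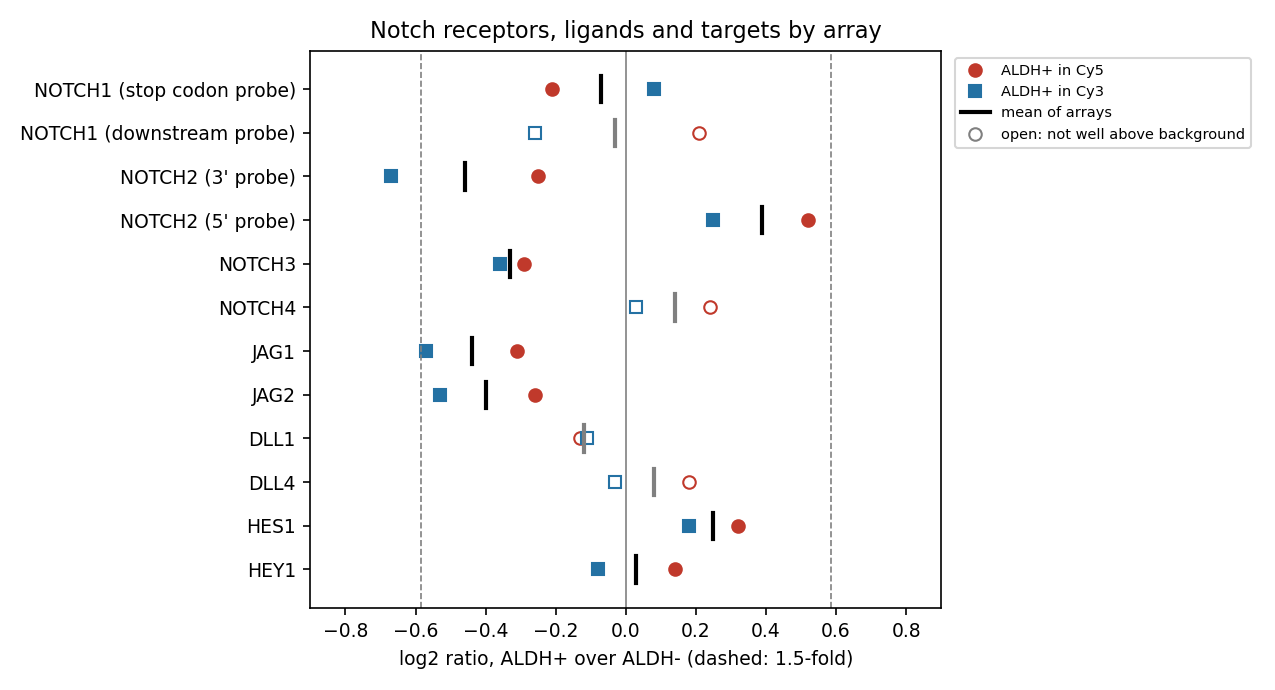
Log2 ratio of ALDH+ over ALDH- cells (x axis) for each of the 12 probes of the 10 genes (rows). Circles have ALDH+ cells in Cy5, squares ALDH+ cells in Cy3, bars their mean, open symbols probes not well above background, and dashed lines 1.5-fold. JAG1, JAG2, NOTCH3 and the 3′ probe of NOTCH2 lie below 0 on both arrays, and HES1 and the 5′ probe of NOTCH2 lie above 0 on both.

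Both Jagged ligands had lower signal in ALDH+ cells. JAG1, which activates Notch receptors from the neighboring cell, had intensities of 294.3 in ALDH+ and 365.8 in ALDH- cells with ALDH+ cells in Cy5. With the dyes exchanged it had 268.4 and 398.4. The ALDH+ values lay below the ALDH- values without overlap. Its log2 ratios were -0.31 and -0.57, with a mean of -0.44 (SD 0.181), or 1.36-fold lower, and 8.72% of genes had a lower ratio. The probe lies at chr20:10619061-10619120 of hg19, from base 5198 of NM_000214.

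JAG2, the second Jagged ligand, was measured by a probe spotted 10 times on each array (hg19 chr14:105608674-105608733, from base 4419 of NM_002226). Its intensity was 174.0 in ALDH+ and 208.6 in ALDH- cells with ALDH+ cells in Cy5, and 169.9 and 245.5 with the dyes exchanged. Every spot kept was lower in ALDH+ cells: 9 of 9 on one array, where the log2 ratios ran from -0.35 to -0.06 with a median of -0.28, and 10 of 10 on the other, from -0.64 to -0.33 with a median of -0.56. The means of the arrays were -0.26 (SD of the spots 0.0864) and -0.53 (SD 0.106). The arrays thus differed by more than the spots within an array, but not in direction. Their mean was -0.40 (SD of the arrays 0.190), or 1.32-fold lower, and 10.6% of genes had a lower ratio.

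The Delta ligands DLL1 and DLL4 were at background. DLL4, which directs the sprouting of blood vessels, had raw signals of 130 in ALDH- and 123 in ALDH+ cells in Cy3, and of 55.1 in ALDH+ and 42.6 in ALDH- cells in Cy5. Negative control spots had medians of 45.1 and 43.1 in Cy5. DLL1 had 134 and 115 in Cy3 and 51.8 and 44.5 in Cy5, in the same order of populations. Their probes lie on hg19 at chr15:41229655-41229714 for DLL4 and at chr6:170591642-170591701 for DLL1. No difference between populations was detectable for either at these signals.

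**Figure D2:**
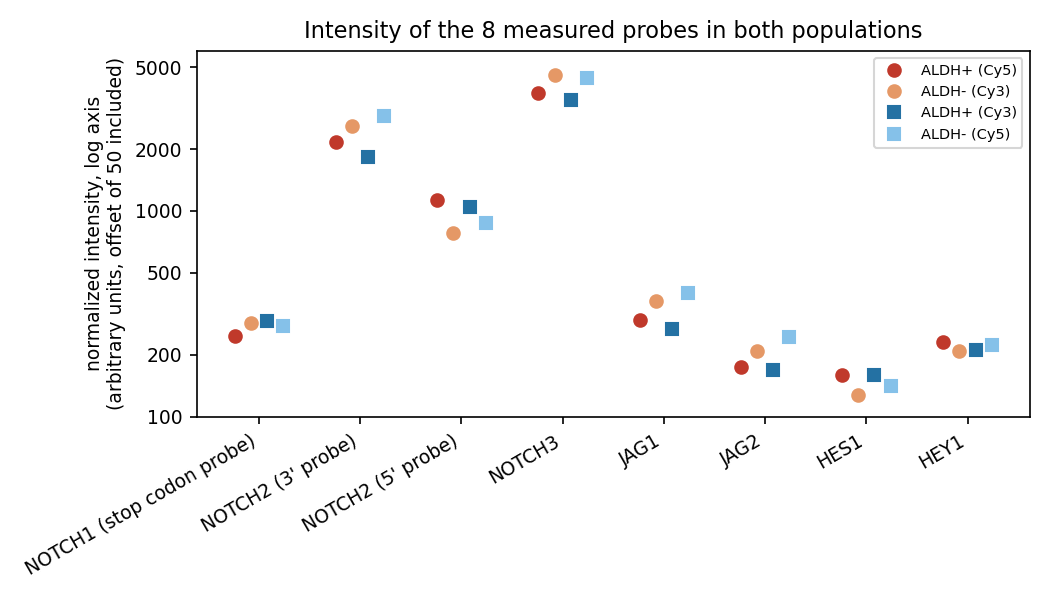
Normalized intensity on a log axis (y, arbitrary units, offset of 50 included) of the 8 measured probes (x) in ALDH+ and ALDH- cells. Circles have ALDH+ cells in Cy5, and squares have the dyes exchanged. For JAG1, JAG2, NOTCH3 and the 3′ probe of NOTCH2 both ALDH+ points lie under both ALDH- points, and for HES1 and the 5′ probe of NOTCH2 above them.

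**Figure D3:**
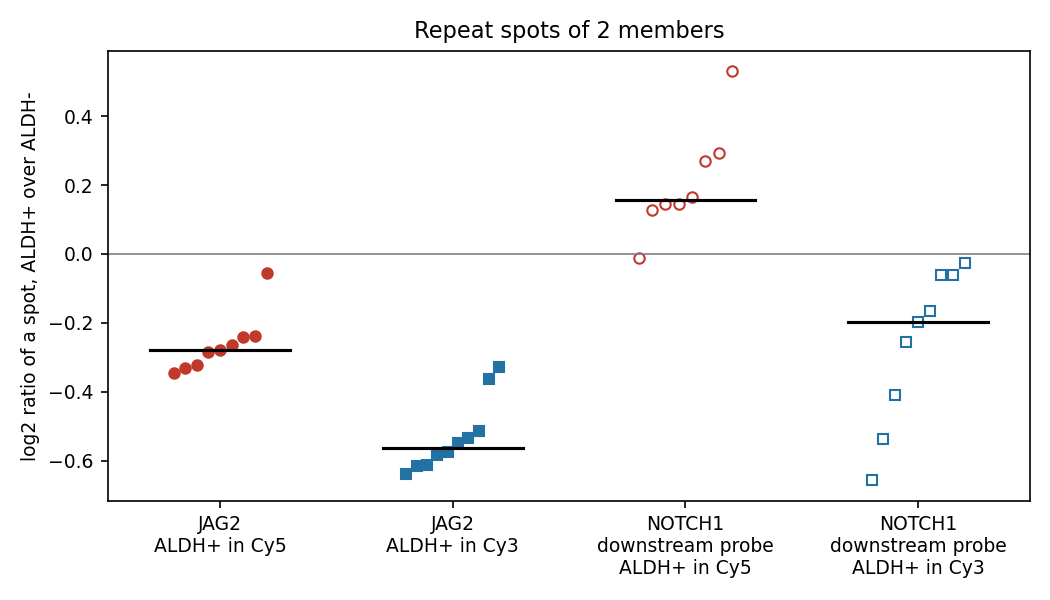
Log2 ratio of ALDH+ over ALDH- cells (y axis) at each repeat spot of JAG2 and of the downstream NOTCH1 probe (x axis, by array), with the median as a bar and open symbols for signal not well above background. All JAG2 spots lie below 0 on both arrays, whereas 7 of 8 NOTCH1 spots lie above 0 with ALDH+ cells in Cy5 and 9 of 9 below 0 with the dyes exchanged.

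Of the 2 targets, HES1 had the same sign on both arrays under loess and HEY1 did not. HES1, the repressor induced by Notch in most tissues, had intensities of 159.1 in ALDH+ and 127.2 in ALDH- cells with ALDH+ cells in Cy5, and of 159.8 and 141.3 with the dyes exchanged. Both ALDH+ values were higher than both ALDH- values. Its log2 ratios were 0.32 and 0.18, with a mean of 0.25 (SD 0.102), or 1.19-fold higher, and 87.2% of genes lay below it. HES1 is a dim probe on these arrays, with a raw Cy3 signal of 181 in ALDH- cells against 135.2 for negative control spots, and the added offset compresses such ratios. HEY1, its relative known from heart and blood vessels, had 231.8 in ALDH+ and 210.1 in ALDH- cells, and 210.5 and 222.8 with the dyes exchanged. Its log2 ratios were 0.14 and -0.08, with a mean of 0.03 (SD 0.158), so no difference exceeded the spread of the arrays.

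HES1 was also the only one of the 8 genes with an entry among the RefSeq promoter windows (GRCh38.p14, from 250 bases before to 50 after the start of the gene) that held the core motif of RBPJ, TGGGAA, on either strand. DLL1 and HEY1 had no entry. It held the motif 2 times, without overlap, against 1 or more times in 24.0% and 2 or more in 3.8% of all 35116 windows. Of the targets HES1 and HEY1, HES1 had a common direction on the arrays under loess, but not relative to all genes with median centring. The stretch around both motifs is shown for that reason, with the motifs in capitals. It lies on the plus strand of GRCh38.p14 at chr3:194136044-194136103. Any link between these motifs and the ratio of HES1 was not tested. A match of letters is a description and not a binding site.
HES1 promoter: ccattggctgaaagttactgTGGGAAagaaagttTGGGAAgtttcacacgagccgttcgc

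The direction of the 7 genes was compared under other background corrections and normalizations. With the array software's own log ratio, which has no added offset, JAG1 had -0.60, JAG2 -0.64 and HES1 0.50. JAG1 and JAG2 were then past 1.5-fold lower, 2 of the 7 genes, and 0 were past it higher. Under that ratio 9.17% of all genes were past 1.5-fold lower and 4.09% higher. The share of genes below JAG1 was then 8.60%, near that given above. NOTCH3 was nearest to 0 with median centring in place of loess, at -0.11. Under that setting the genes as a whole had medians of 0.557 with ALDH+ cells in Cy5 and -0.432 with the dyes exchanged. The 3′ probe of NOTCH2 then had 0.65 and -1.24, and NOTCH3 had 0.70 and -0.92, so both lay above the median of all genes on one array and below it on the other. HES1, with 0.41 and 0.05, also changed its side of that median. JAG1, with 0.19 and -0.98, and JAG2, with 0.00 and -0.80, lay below the median of all genes on both. JAG1, JAG2, NOTCH3 and the 3′ probe of NOTCH2 had negative means and HES1 a positive one under every correction and normalization shown in the plot of settings.

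**Figure D4:**
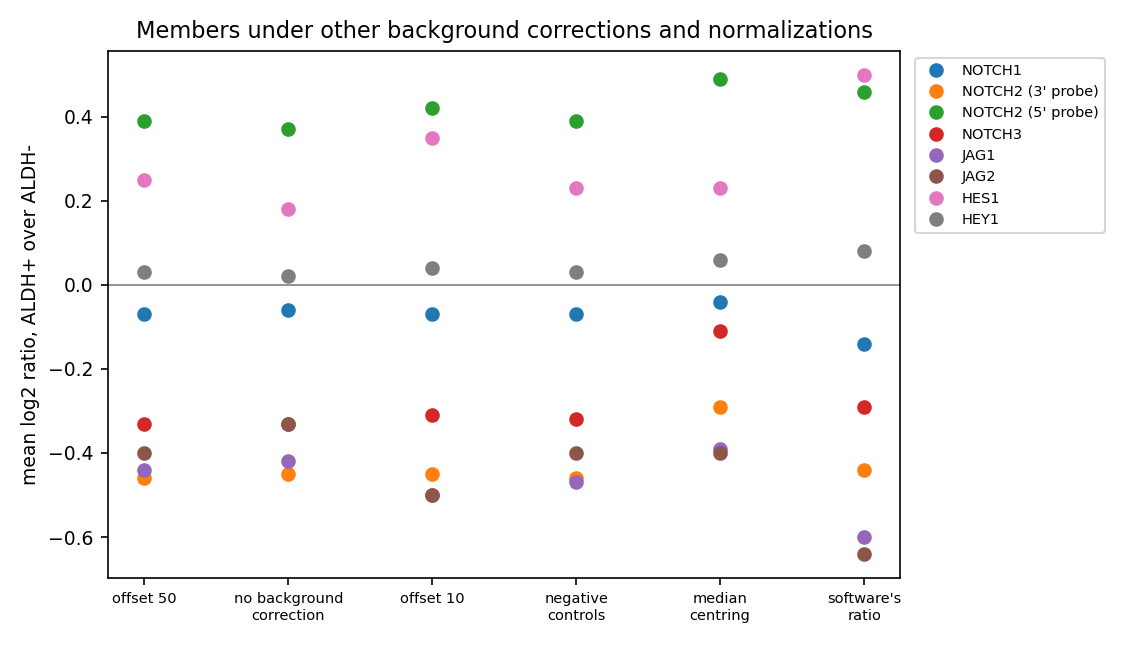
Mean log2 ratio of ALDH+ over ALDH- cells (y axis) of the 8 measured probes under the offset of 50 and 5 other background corrections or normalizations (x axis). No probe changes its side of 0, JAG1, JAG2 and HES1 lie farthest from 0 with the software's ratio, and NOTCH3 lies nearest to 0 with median centring.

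The remaining pathway was described by a list of 70 genes, all with a probe, of which 50 were measured. Their median log2 ratio was -0.11, and 33 of 50 lay below 0, where 6912 of all 13720 genes did. Past 2-fold lower was 1 gene, SPEN, and 0 were higher, where 0.707% of all genes were lower and 0.211% higher. Past 1.5-fold lower were 3, SPEN, HES4 and AAK1, and 0 were higher. With 4.59% of all genes past 1.5-fold lower, 3 of 50 is near that background.

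SPEN, a large nuclear corepressor that binds RBPJ and represses its targets, had log2 ratios of -1.88 and -1.46, with a mean of -1.67 (SD 0.299), or 3.19-fold lower in ALDH+ cells. A second SPEN probe was not measured. TLE1, a corepressor that partners HES proteins, had a smaller ratio of the same sign, with a mean of -0.57 (SD 0.0148). The second probe of TLE1 had only -0.07. TLE5, a short relative that opposes the TLE proteins, had 0.27 (SD 0.0869), and TLE4 had 0.16, with opposite signs on the arrays. In all, 8 of the 12 corepressors measured lay below 0, where 33 of 50 genes of the whole list and 6912 of all 13720 genes did. RBPJ itself, named after its value was seen, had -0.14 (SD 0.165). None of the 3 Mastermind coactivators MAML1, MAML2 and MAML3 was well above background.

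HES4, another Notch target of the HES family, had log2 ratios of -0.77 and -0.64, with a mean of -0.70 (SD 0.0917), or 1.63-fold lower. It thus lay on the other side of 0 from HES1 on both arrays. NRARP, a feedback inhibitor induced by Notch and named after its value was seen, had -0.17 and -0.55, with a mean of -0.36 (SD 0.265). HES6 and HEYL, also named after their values were seen, had means of 0.10 and -0.06, but the 3 measured probes of HES6 ran from -0.26 to 0.10. HES2, HES5, HES7 and HEY2 were not measured. Of 4 wider targets measured, 2 lay above 0 and 2 below. CCND1, a cyclin of the G1 phase, had a mean of 0.32 (SD 0.0901) and CDKN1A, a cyclin-dependent kinase inhibitor, one of 0.24 (SD 0.0538). BHLHE40, a repressor of the same protein class as HES1 and named after its value was seen, had -0.22 (SD 0.00565).

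Of the genes that act on ligands and on receptor turnover, 9 of 11 measured lay below 0, with a median of -0.19. In the whole list of other pathway genes 33 of 50 did, with a median of -0.11, and of all genes measured 6912 of 13720. Whether this group differs from the rest of the list was not tested. AAK1, a kinase of clathrin adaptors, had a mean of -0.69 (SD 0.213) at its brightest probe, while its 4 measured probes ran from -0.69 to -0.03. NUMBL, an inhibitor of Notch, had -0.58 (SD 0.0563), and FBXW7, a ubiquitin ligase subunit that marks the released intracellular part for destruction, -0.55 (SD 0.252). MIB1, the ligase that drives ligand endocytosis, had -0.37 (SD 0.00942). NEURL1, another ligase for ligands, had 0.33, but 0.59 on one array and 0.06 on the other (SD 0.375). Of the other ligands, DLL3 had a mean of -0.38 (SD 0.0582) and DLK2 -0.39 (SD 0.175). DLK1, the third other ligand measured and named after its value was seen, had 0.03 (SD 0.0516).

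The machinery that cuts the receptor had small ratios. Among 8 genes measured, 4 lay above 0 and 4 below, with a median of 0.06. The gamma-secretase subunits APH1A (0.31, SD 0.110) and PSENEN (0.18, SD 0.00377) were above 0 on both arrays, and APH1B (0.26, SD 0.393) on 1 of them. In ALDH- cells APH1B was well above background on 1 array only. The subunits did not share a direction. PSEN2 (-0.06, SD 0.0168) and NCSTN (-0.06, SD 0.213), both named after their values were seen, had means below 0. PSEN2 was below 0 on both arrays, and NCSTN had 0.09 and -0.22. ADAM10, the protease of the first cut and named after its value was seen, had -0.21 (SD 0.0111). RFNG, which adds sugars to the receptor, had 0.16 (SD 0.324), with opposite signs on the arrays. All 20 pathway genes chosen by the rule for naming kept the sign of their mean under the 5 other corrections and normalizations. The rule took mainly the extremes of the same arrays that these settings reprocess, so kept signs were largely fixed in advance. They do not show agreement between arrays, since APH1B, RFNG and TLE4 had opposite signs on them.

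**Figure D5:**
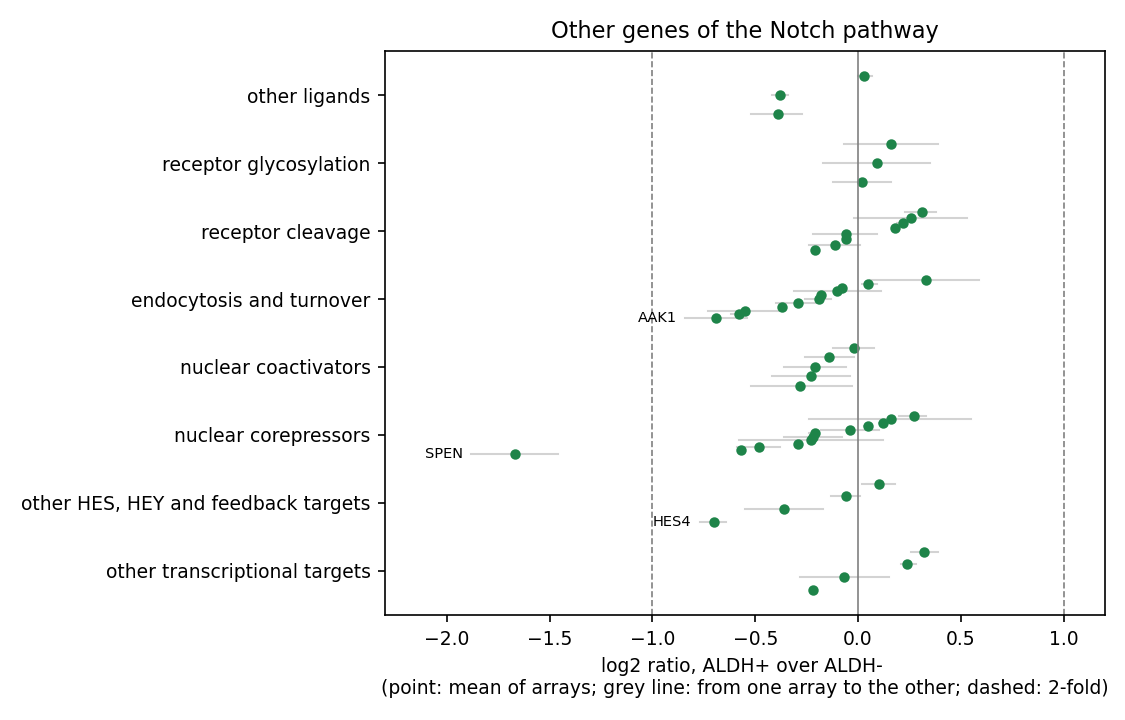
Mean log2 ratio of ALDH+ over ALDH- cells (x axis, points) of the 50 measured genes of the remaining pathway, grouped by role (rows), with grey lines from one array to the other and dashed lines at 2-fold. SPEN, HES4 and AAK1, which are labeled, are the genes past 1.5-fold, and SPEN is past 2-fold.

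The label of the cells was set against marker genes. Of 8 epithelial markers 7 were measured, and of 6 markers of clear cell ovarian carcinoma all 6. Of 7 endothelial markers, cells in which NOTCH4 and DLL4 are known, 1 was measured (CDH5), and of 6 fibroblast markers none (0). Of 6 leukocyte markers 3 were measured, and of all 27265 genes 13720 were. CD14 had the highest log2 ratio among these 3 markers, at 0.45, with intensities of 271.3 in ALDH+ and 198.5 in ALDH- cells. PTPRC had a ratio of 0.04 (119.8 and 116.9) and CD68 one of -0.08 (117.3 and 123.8), each with opposite signs on the arrays. The endothelial marker CDH5 had 0.19 (125.2 and 109.7). These intensities are means of both arrays with the added offset included. The part of other cell types in the ratios of the Notch genes was not tested.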

How the data were processed

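The arrays held 43118 spots of gene probes. The authors deposited for each array spot intensity (mean) with the background around it, in both dyes, without normalization, as read by Feature Extraction (10.7.3.1 per the file headers, 8.5.1.1 per the labels), and that software's log10 ratio. A joined table, deposited by the authors, repeats the log10 ratio of both arrays. Intensities were corrected with normexp (offset 50) and normalized by loess within arrays in R 4.3.3 with limma 3.58.1. Control and outlier spots (531 and 519 gene spots) had no weight and were left out. No gene spot (0) was saturated. Ratios were turned to ALDH+ over ALDH- cells, averaged over the spots of a probe and over both arrays, which count as 1 replicate. A probe was measured when at least 1 population had more than 50% of the probe's spots well above background, by the software's flag, on both arrays, and the brightest measured probe stood for a gene. This held for 16682 probes and 13720 genes, and the number of arrays limits the precision. Genes were named by RefSeq accession (25418 probes matched) or by the array's name. Named were all 10 genes and, of the other pathway genes, those past 2-fold with the 10 highest and the 10 lowest, some of which are not reported here. Genes, lists and alternatives were chosen with earlier results of these data known. Background correction and normalization were tested on simulated arrays with planted changes larger than 2-fold in brighter probes. Smaller changes, dim probes, the filter and the choice of probe were not tested that way. The plots and tables were made in Python 3.11.15 with pandas 2.3.3.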

Additional observations from a re-analysis of the deposited data

How the results depend on the processing

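The software's ratio combined with a 1.5-fold threshold was chosen after seeing the data. The median log2 ratio of the 7 genes, -0.33, became -0.108 with median centring, -0.065 with the mean over measured probes, where both NOTCH2 probes enter, and -0.094 without the filter, where the 3 genes at background enter. It stayed negative under every alternative run. None (0) of them passed 2-fold under any alternative. Of the other pathway genes, 1 was past 2-fold lower, where 0.707% of all genes were. With the 1.5-fold threshold 3 were lower, where 4.59% of all genes were. With the software's ratio and 1.5-fold together, 2 of the 7 genes were lower, and of the 50 other pathway genes measured 1 was higher and 7 were lower, where 4.09% of all genes were higher and 9.17% lower. HES1 moved beyond the SD between arrays with an offset of 10 (0.35) and with the software's ratio (0.50), JAG2 with the software's ratio (-0.64) and NOTCH3 with median centring (-0.11). The joined table repeats the software's ratio, and a value of 1 array cannot lie beyond the SD of both. Among single genes 2 changed sign, NOTCH1 to 0.079 and HEY1 to -0.082, both when the array with Cy3-labeled ALDH+ cells was used alone. NOTCH2 moved to -0.035 with the mean over its probes. The cause of the other moves was not tested. Signal over background limits the ratios of dim probes such as that of HES1.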

Other observations

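Among markers of clear cell ovarian carcinoma, PAX8, a transcription factor of the Müllerian lineage, had log2 ratios of -0.83 and -0.64, with a mean of -0.74 (SD 0.135), and ARID3A, a DNA-binding protein, a mean of -0.84 (SD 0.231). Both were past 1.5-fold lower in ALDH+ cells, as were 4.59% of all genes measured. The means of all 6 markers of this list lay below 0, 5 of them on both arrays. ANXA4 had -0.40 and 0.07 on the arrays, and 0.25 with median centring. Of the 7 measured epithelial markers 5 lay above 0, with a median of 0.02, and of all 13720 genes 6808 lay above 0 and 6912 below. These values belong to no comparison of Notch genes, and no test was possible.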
